A study of Mus musculus with 6 samples.

Results

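The footprint of Cbx7 inside Ring1B binding sites was described from 2 lists of ChIP-seq peaks (chromatin immunoprecipitation followed by sequencing) of mouse embryonic stem cells. Members were all 2754 Cbx7 peaks and all 6982 Ring1B peaks, 9736 of the 24662 peaks in the 4 lists of the series. A Cbx7 and a Ring1B peak were paired when they shared at least 1 bp. All cells were wild-type E14Tg2A, a feeder-free embryonic stem cell line of the 129/Ola strain kept on gelatin in 20% serum with the self-renewal factor LIF, and no group was treated. The series has 6 samples: Ring1B, Cbx7, RYBP and Suz12 were precipitated once each, and 2 control samples made with rabbit IgG were not analysed here. Chromatin was fixed in 1% formaldehyde for 10 min. The Cbx7 antibody was a commercial one and the Ring1B antibody was made in the submitting laboratory. With 1 library per target and lists of positions only, differences between targets cannot be checked against replicates, read depth is unknown, and the labelled cell type could not be checked against marker genes.

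Ring1B is the ubiquitin ligase shared by all forms of Polycomb repressive complex 1 (PRC1), which holds developmental genes silent in embryonic stem cells. Cbx7 is the chromodomain subunit of the canonical form of PRC1 in these cells and binds histone H3 trimethylated at lysine 27. That mark is written by PRC2, of which Suz12 is a core subunit. RYBP belongs to the variant forms of PRC1, which carry no Cbx protein. A canonical complex contains both Cbx7 and Ring1B, and the comparison asked how the mapped Cbx7 site lies within the mapped Ring1B site.

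Of the Cbx7 peaks, 92.1% (2536 of 2754) were paired with Ring1B, and of the Ring1B peaks 35.3% (2463 of 6982) were paired with Cbx7. The paired Ring1B peaks were the wider ones, with a median width of 2668 bp against 1286 bp in the 4519 unpaired ones, and they held 54.7% of all Ring1B sequence. Nearly all sequence of the paired Cbx7 peaks lay on Ring1B: the 2 lists shared 6.05 Mb, which is 98.5% of the paired Cbx7 sequence and 78.4% of the paired Ring1B sequence. The overlap was unequal in the 2 directions. A Cbx7 peak was covered by Ring1B over its whole length in 69.3% of cases (1757 of 2536), whereas 5.03% of paired Ring1B peaks (124 of 2463) were covered over their whole length by Cbx7.

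The covered share is the percentage of the bases of a Ring1B peak that lie under Cbx7 peaks. Its median over the 2463 paired Ring1B peaks was 81.0% (95% interval of the median 80.1 to 81.8%), with quartiles of 68.0 and 91.3%. In 94.0% of them (2314 peaks) Cbx7 covered at least 50% of the Ring1B peak. A covered share below 25% was found in 23 peaks, 0.934% of the total (95% Wilson interval 0.623 to 1.40%), and a share from 25 to 50% in 126 peaks. Intervals here treat peaks as independent, which neighbouring peaks are not, and they do not cover variation between libraries. The smallest overlaps that made a pair were 1, 4, 4, 8 and 10 bp, and the unpaired Cbx7 peaks closest to Ring1B lay 41, 82, 124, 210 and 226 bp away. In the pair with 8 bp, Cbx7 at chr6:51127480-51128307 met the edge of Ring1B at chr6:51126905-51127488.

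**Figure D1:**
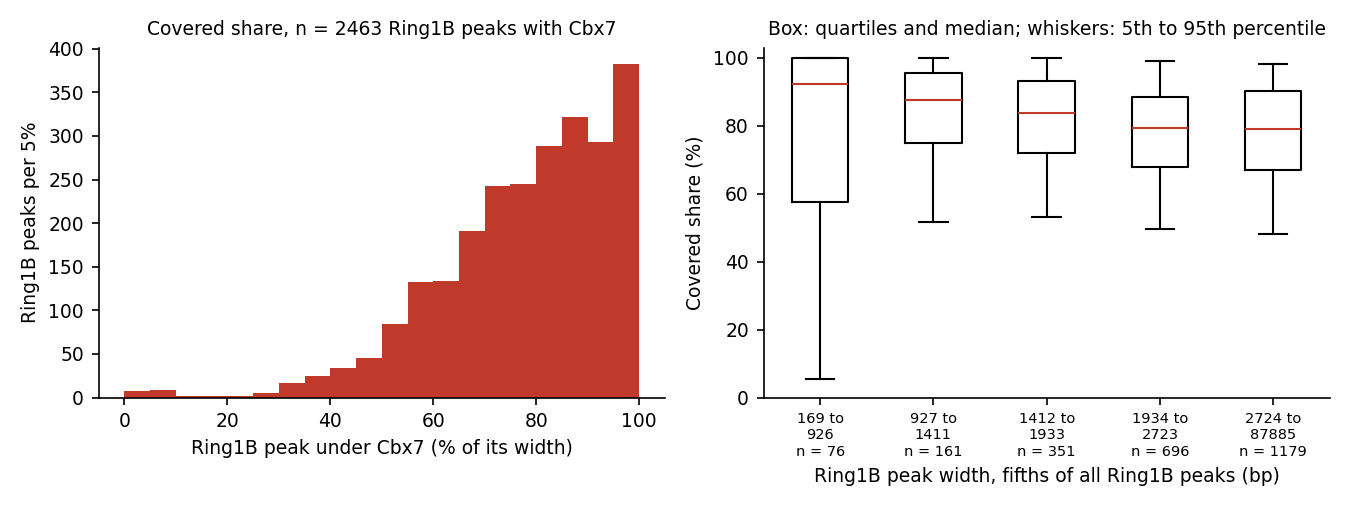
Left, number of Ring1B peaks with Cbx7 by the percentage of their width under Cbx7, in steps of 5%. Right, the same share by quintile of the width of all Ring1B peaks in bp, with the number of paired peaks under each box; the median falls from 92.3% in the narrowest quintile to 79.2% in the widest.

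The covered share was lower in wider Ring1B peaks, while pairing was more frequent there. In quintiles of the width of all Ring1B peaks, the median covered share was 92.3% in the narrowest (76.0 to 99.3%, 76 paired peaks), 87.6% in the next (161 peaks), 83.7% in the middle (351 peaks), 79.3% in the fourth (696 peaks) and 79.2% in the widest (78.3 to 80.8%, 1179 peaks). The medians of the upper 2 quintiles differed by less than their intervals. Ring1B width sets the quintiles and is also the denominator of the share. The share is bounded at 100% and a narrow Ring1B peak can be exceeded by its Cbx7 partner, so the widths themselves were compared next. The 35 Ring1B peaks of 10 kb or more do not extend the decline: 34 of them were paired, with a median covered share of 85.2% and a range from 37.4 to 99.8%.

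Widths, edges and midpoints were taken from the 2117 one-to-one pairs, in which a Cbx7 peak meets a single Ring1B peak and the reverse. These hold 86.0% of the paired Ring1B peaks and 83.5% of the paired Cbx7 peaks. Although Cbx7 peaks were the wider ones when whole lists were compared, at the same site the Cbx7 peak was usually the narrower one. Median widths in the pairs were 1997 bp for Cbx7 (quartiles 1536 and 2676 bp) and 2668 bp for Ring1B (quartiles 2028 and 3514 bp). Within a pair the Cbx7 width had a median of 80.8% of the Ring1B width (95% interval 79.6 to 81.8%, quartiles 67.5 and 91.8%), a median difference of 504 bp. Cbx7 was the wider peak in 8.74% of pairs (185 of 2117).

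The widths of the 2 partners rose together. Across pairs, Spearman's rho was 0.83 and Pearson's r of the log2 widths was 0.86 (n = 2117 pairs from the same pair of libraries, a description without a test). The median Cbx7 width rose from 776 bp in the 25 pairs of the narrowest Ring1B quintile to 1406 bp in the middle one and 2722 bp in the widest, where the Ring1B medians were 710, 1700 and 3577 bp. The width ratio fell from 112.6% in the narrowest quintile through 84.0% in the middle one to 78.5% in the widest. Ring1B width sets the quintiles and is also the denominator of this ratio, so the fall is partly built in. The Ring1B width minus the Cbx7 width had a median of -82 bp in the narrowest quintile and 104 bp in the second. It grew to 264, 469 and 792 bp in the following ones. Ring1B width is a term of this difference as well as the basis of the quintiles, so its rise is also partly built in. From the second quintile to the widest, the Ring1B median grew from 1241 to 3577 bp. This net difference sets overhang at 1 edge against uncovered Ring1B sequence at the other. The lists hold no signal, and a shorter stretch of Cbx7 binding cannot be told apart from weaker Cbx7 signal toward the edges of a site.

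**Figure D2:**
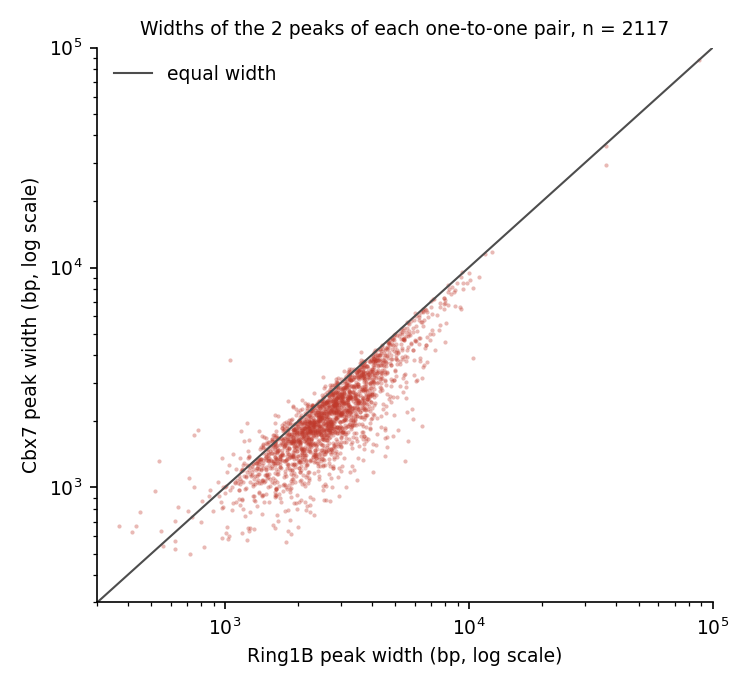
Width of the Cbx7 peak against width of its Ring1B partner, both in bp on log axes, 1 point per one-to-one pair, with the line of equal width. Most of the 2117 points lie below the line, and 185 lie above it.

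In most pairs both Cbx7 edges lay inside the Ring1B peak. This nested arrangement was found in 71.2% of pairs (1508 of 2117, 95% Wilson interval 69.3 to 73.1%). In 12.8% of pairs (272) the Cbx7 peak passed the lower edge of Ring1B and ended inside it, and in 12.3% (260) it passed the upper edge, lower and upper referring to chromosome coordinates. In 3.64% of pairs (77) the Cbx7 peak enclosed the Ring1B peak. Where it passed an edge, the overhang was short, with medians of 60.5 and 51.5 bp for the shifted arrangements and 127 bp in total for the enclosing one. Nesting was found in 2 of 25 pairs of the narrowest Ring1B quintile and in 50.8, 58.4, 72.3 and 78.6% of pairs in the following ones. Because the quintiles are set by Ring1B width, part of this rise is built in as well.

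The inset, which is the distance by which a Cbx7 edge lies inside the Ring1B edge, was alike on the 2 sides. The lower inset had a median of 204 bp (95% interval 192 to 218 bp, quartiles 41 and 476 bp) and the upper inset of 217 bp (203 to 233 bp, quartiles 55 and 489 bp). Of the 4234 edges, 83.6% lay inside, 28.2% lay within 100 bp of the Ring1B edge on either side and 23.9% lay more than 500 bp inside. Both edges coincided within 100 bp in 193 pairs, 9.12%. The lower inset was the larger one in 1014 pairs and the upper one in 1100. Within a pair the 2 insets differed by a median of 260 bp, with a median of 81 bp for the smaller inset and 398 bp for the larger. Sorting the insets by size makes them unequal wherever the Cbx7 peak lies. Whether uncovered sequence lay more on 1 side than random placement would give was not tested. Which side faces a gene was not analysed here.

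The Cbx7 midpoint lay near the middle of the Ring1B peak. Measured from the lower edge in percent of the Ring1B width, its median position was 49.6% with quartiles of 44.4 and 54.6%. It fell between 40 and 60% in 76.2% of pairs (1614 of 2117, 74.4 to 78.0%), between 20 and 40% in 11.9% (251 pairs) and between 60 and 80% in 11.1% (236 pairs). It fell in the outer 20% on either side in 6 and 5 pairs, and outside the Ring1B peak in 3 and 2 pairs. In base pairs the 2 midpoints were a median of 130 bp apart, and within 100 bp in 39.7% of pairs (840). As a percentage of the distance from midpoint to edge of the Ring1B peak, the offset had a median of 10.2% (95% interval 9.65 to 10.8%). A Cbx7 peak nearly as wide as its Ring1B partner has little room to lie off centre. Among nested pairs the offset was a median of 45.2% of the largest that the 2 widths allow, and it was below 50% of that limit in 54.6% of them (823 of 1508).

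**Figure D3:**
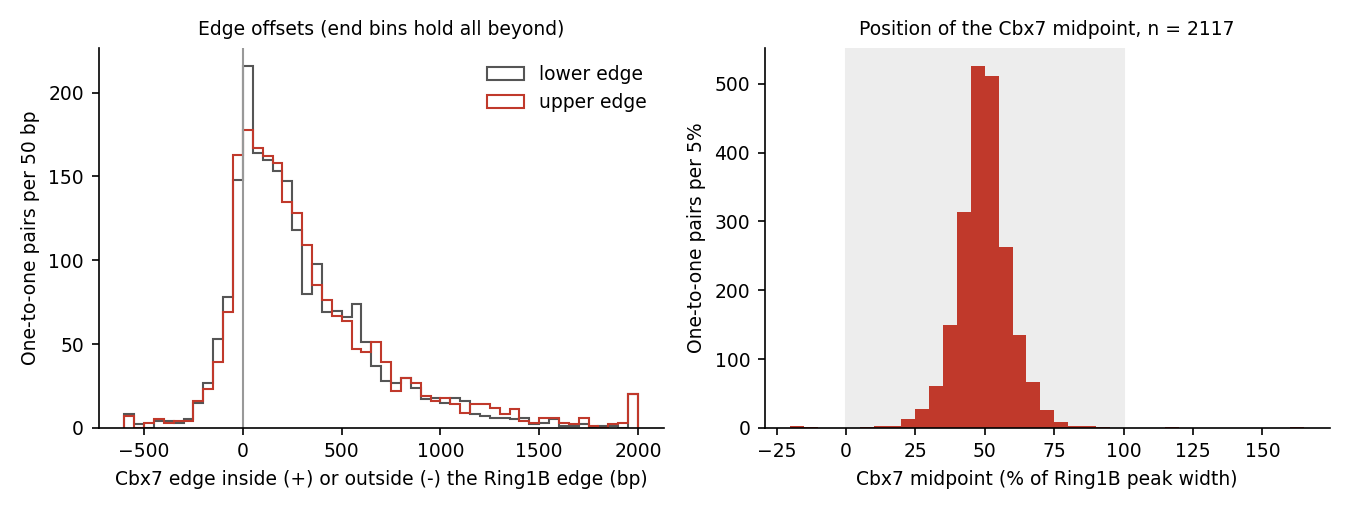
Left, distance of the lower and upper Cbx7 edge from the matching Ring1B edge in bp (positive inside), as number of one-to-one pairs per 50 bp, with all values beyond the axis in the end bins. Right, position of the Cbx7 midpoint in percent of the Ring1B width, with the Ring1B peak shaded; 1614 of 2117 midpoints lie between 40 and 60%.

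Most paired Ring1B peaks held a single Cbx7 peak. Of the 2463, 2296 held 1, 150 held 2 and 17 held 3, so 6.78% held 2 or more (95% Wilson interval 5.85 to 7.84%). This share depends on the pairing rule: it was 14.9% when peaks within 1 kb were paired and 4.05% after peaks within 1 kb were merged. Ring1B peaks with more Cbx7 peaks were wider, with medians of 2609 bp for 1, 4765 bp for 2 and 10773 bp for 3 Cbx7 peaks. The median covered share was 80.6% with 1, 86.4% with 2 and 78.7% with 3 Cbx7 peaks. The 184 gaps between neighbouring Cbx7 peaks on a Ring1B peak were short, with a median of 111 bp (quartiles 40 and 374 bp), and 149 of them were below 500 bp. In the reverse direction 109 Cbx7 peaks joined 2 Ring1B peaks and 1 joined 3. The 111 gaps in Ring1B under these Cbx7 peaks had a median of 72 bp and a maximum of 282 bp. Suz12, the PRC2 subunit, bridged 145 of the 184 Cbx7 gaps and 65 of the 111 Ring1B gaps over their whole length.

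The 5 Ring1B peaks with the most Cbx7 peaks, taking the widest of the 17 with 3, measured from 12.5 to 18.1 kb. At chr2:33483534-33501623 Cbx7 peaks of 3975, 3040 and 7306 bp covered 79.2% of the Ring1B peak. At chr4:139376645-139392943 peaks of 6409, 2786 and 4670 bp covered 84.2%. Suz12 covered 99.8 and 100% of these 2 Ring1B peaks, and neither carried RYBP. RYBP was listed on the other 3, at chr11:118895164-118910311, chr16:17796026-17809053 and chr11:21892547-21905094, where it covered 30.2, 37.3 and 23.8% of the Ring1B peak and Cbx7 88.2, 66.4 and 98.8%. The Cbx7 peak that joined 3 Ring1B peaks lay at chr15:35227317-35231838 and measured 4.52 kb.

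The parts of a Ring1B peak with and without Cbx7 differed in the other 2 subunits, which the pairing did not use. Paired Ring1B sequence was split into 6051 kb under Cbx7, 1600.1 kb of flanks outside the outermost Cbx7 edges and 63.1 kb of gaps between Cbx7 peaks. Suz12 peaks covered 98.5% of the part under Cbx7, 79.4% of the flanks, 88.1% of the gaps and 75.6% of the sequence of Ring1B peaks without Cbx7. RYBP peaks covered 18.5% of the part under Cbx7, 6.25% of the flanks and 3.52% of the gaps, and 28.9% of the sequence of Ring1B peaks without Cbx7. Peak by peak, among 2319 paired Ring1B peaks with a flank, the part under Cbx7 had more Suz12 than the flank in 1621 peaks and less in 159, and the 2 parts were equal in 531 of the 2311 with any Suz12. RYBP covered more of the part under Cbx7 in 693 peaks and more of the flank in 69. The 81.4 kb of Cbx7 sequence that overhung the Ring1B edge were covered to 37.8% by Suz12 and to 2.65% by RYBP. Flanks are by construction at the edge of a peak, so these values do not separate the presence of Cbx7 from the distance to the Ring1B centre.

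The profile over one-to-one Ring1B peaks scaled to equal width shows this order along the peak. These Ring1B peaks were chosen because they carry a Cbx7 peak, so a high Cbx7 value at the centre is partly built in. Suz12 and RYBP were not used in the choice. At the centre 98.6% of these Ring1B peaks lay under Cbx7, 99.3% under Suz12 and 26.9% under RYBP. At 25% of the width the values were 88.6, 98.2 and 20.3%. At 5% of the width they were 39.0, 79.4 and 6.71%, and at the lower edge itself 16.6, 50.1 and 3.97%. The upper edge gave 15.9, 49.8 and 2.46%. Beyond the lower edge by 10% of the width, Suz12 was present at 18.0% of sites and Cbx7 at 3.87%. In Ring1B peaks without Cbx7 the centre lay under Suz12 in 71.2% and under RYBP in 31.4%, and the lower edge in 42.0 and 16.8%; those peaks are narrower, so the same percentage is a shorter distance.

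**Figure D4:**
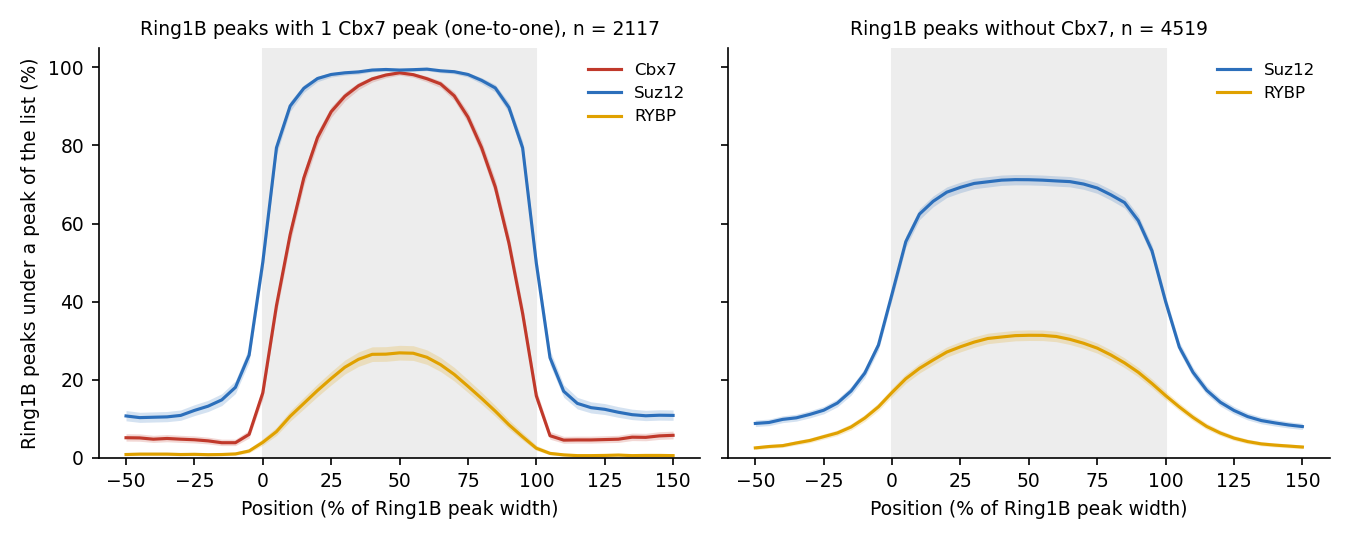
Percentage of Ring1B peaks that lie under a peak of each list, along the Ring1B peak scaled to 100% of its width (shaded), with 95% Wilson bands. Left, the 2117 one-to-one pairs, where Cbx7 falls from 98.6% at the centre to 16.6% at the lower edge and Suz12 from 99.3 to 50.1%; right, the 4519 Ring1B peaks without Cbx7. Both sets were chosen by Cbx7 and not by Suz12 or RYBP, so the height of the Cbx7 curve is partly built in.

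The same measure was taken for the other 2 lists on the Ring1B peaks that also carried Cbx7. Over all Ring1B peaks, 81.9% were paired with Suz12 and 33.0% with RYBP. On the 2448 Ring1B peaks that carried both Cbx7 and Suz12, the median covered share was 80.9% for Cbx7 and 96.9% for Suz12, and Suz12 covered more in 86.7% of the 2406 without a tie (2087 peaks). On the 793 Ring1B peaks with both Cbx7 and RYBP, the medians were 79.1% for Cbx7 and 48.7% for RYBP, and RYBP covered less in 84.9% of 790 (671 peaks). These counts describe single libraries, whose peak lists may differ in depth and, for RYBP, in the calling threshold, and no test of a difference between targets is given.

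Edges of each list were compared with Ring1B over its own one-to-one pairs, where Cbx7 was nested in 71.2%, enclosed Ring1B in 3.64% and had a median inset of 210 bp over both edges. The Suz12 peak was nested in Ring1B in 22.8% of 5097 pairs (21.7 to 24.0%), enclosed it in 28.3%, and had a median width of 101.2% of the Ring1B peak, with a median inset of -9 bp. RYBP was nested in 49.0% of 2195 pairs (46.9 to 51.1%), enclosed Ring1B in 19.7%, and had a median of 76.8% of the Ring1B width and a median inset of 149 bp. The lists may differ in depth and, for RYBP, in the calling threshold, and peak edges can depend on both. In nesting, enclosing and inset RYBP stood between Cbx7 and Suz12, over Ring1B peaks that differ between the lists. Its width ratio was the lowest of the lists, with 80.8% for Cbx7. The median offset of the midpoint was 19.8% for RYBP, 10.1% for Suz12 and 10.2% for Cbx7. On the 1897 Ring1B peaks with a single Cbx7 and a single Suz12 partner, the median widths were 1975 bp for Cbx7, 2611 bp for Ring1B and 2614 bp for Suz12. There the Cbx7 peak lay wholly inside the Suz12 peak in 65.9% (1250 sites, 63.7 to 68.0%), and Cbx7 inside Ring1B inside Suz12 was found at 296 sites, 15.6%. On the 684 Ring1B peaks with a single Cbx7 and a single RYBP partner, RYBP was nested in Ring1B in 82.6% and Cbx7 in 75.4%. On these shared peaks the order of nesting was thus the reverse of that over separate pairs. The RYBP peak lay wholly inside the Cbx7 peak in 54.7% (374 sites) and the reverse was found at 41 sites.

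No difference in the other subunits was detected between Ring1B peaks that Cbx7 covered to a large or a small part. RYBP was present on 32.6% of the 2314 Ring1B peaks with a covered share of at least 50% (30.7 to 34.6%) and on 25.5% of the 149 with less (19.2 to 33.1%), a difference of 7.12 percentage points (adjusted p = 0.114 by a two-sided exact test of Fisher, with adjustment for 4 tests). Suz12 was present on 99.4 and 98.7% of them (adjusted p = 0.229 in the same exact test), so there was little room for a difference.

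The 218 unpaired Cbx7 peaks were narrow and mostly without other subunits. Their median width was 633 bp (quartiles 512 and 750 bp), compared with 2019 bp for paired Cbx7 peaks. The narrowest quintile of Cbx7 peaks, up to 1259 bp, held 195 of them, and 35.5% of that quintile was unpaired (31.6 to 39.5%); in the other quintiles the unpaired share lay between 0.544 and 1.45%. The nearest Ring1B peak was a median of 139 kb away (quartiles 34.2 and 297 kb), and 83152.5 bp when peaks of 10 kb or wider were left out of every list, which leaves 278 Cbx7 peaks unpaired. In the full lists it lay within 1 kb for 11 of the 218, within 10 kb for 25 (11.5%), within 100 kb for 93 (42.7%) and within 1000 kb for 207 (94.95%). No background distance is given, so these values do not show whether unpaired Cbx7 peaks lay farther from Ring1B than arbitrary positions. For 90 of the 218 the nearest Ring1B peak carried another Cbx7 peak, while 35.3% of all Ring1B peaks carried Cbx7. A difference between these shares was not tested.

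**Figure D5:**
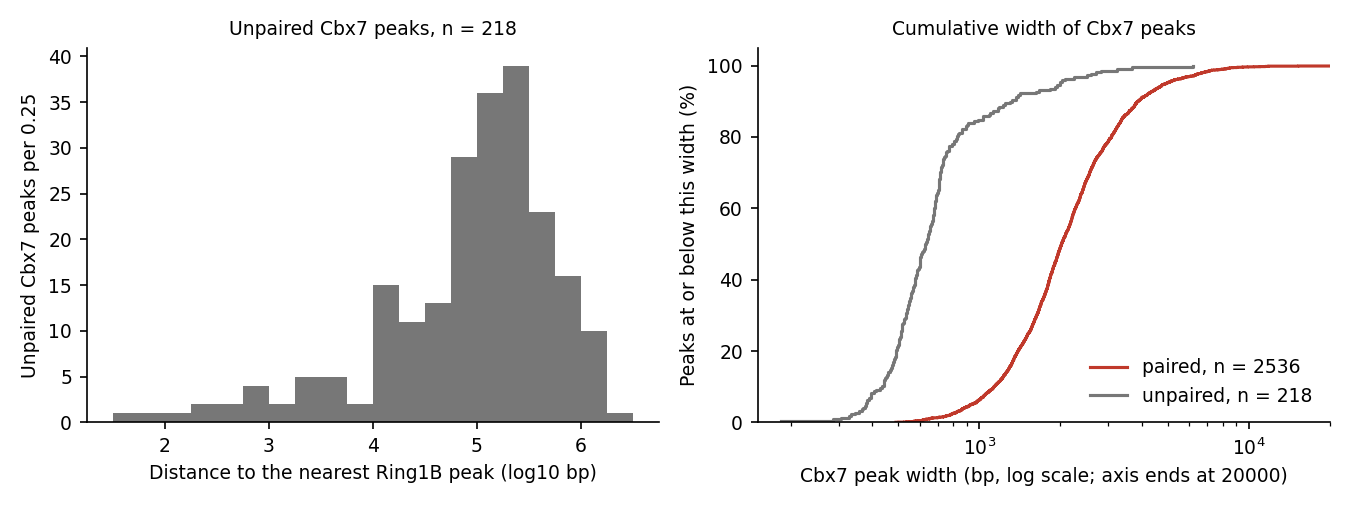
Left, distance from each of the 218 unpaired Cbx7 peaks to the nearest Ring1B peak (log10 of bp), with a median of 139 kb. Right, cumulative share of paired and unpaired Cbx7 peaks by width in bp on a log axis; the medians are 2019 and 633 bp.

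Suz12 was listed on 92.2% of all Cbx7 peaks and RYBP on 28.9%. Suz12 was present on 99.5% of paired Cbx7 peaks (2524 of 2536, 99.2 to 99.7%) and on 6.42% of unpaired ones (14 of 218, 3.86 to 10.5%), a difference of 93.1 percentage points (adjusted p = 1.3e-273 in the exact test of that family of 4). RYBP was present on 31.2% of paired (792) and 2.29% of unpaired ones (5), a difference of 28.9 points (adjusted p = 3.4e-26 in the same exact test). These exact tests, and those below, treat peaks of 1 library per target as independent units and do not cover variation between libraries. The difference in Suz12 was 93.9 points among narrow peaks. Within the narrowest quintile of Cbx7 peaks, 98.0% of 355 paired peaks and 4.10% of 195 unpaired peaks carried Suz12 (adjusted p = 6.0e-126, Fisher's exact test). RYBP was on 12.7 and 2.05% of them (adjusted p = 1.4e-05, Fisher's exact test), so the RYBP difference fell from 28.9 to 10.6 points. Widths were not matched within this quintile. Over all peaks, the upper quartile of unpaired widths was 750 bp and the 5th percentile of paired widths was 930 bp.

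Some unpaired Cbx7 peaks lay near one another. The same counts were not taken for paired Cbx7 peaks, so the values do not show whether unpaired ones were more crowded. Of the 218, 67 shared a 1-Mb window with another unpaired one, and 31 lay within 10 kb of another Cbx7 peak. Windows chosen after their values were seen were chr8:19000000-20000000 with 9 unpaired of 10 Cbx7 peaks, chrX:120000000-121000000 with 9 of 10 and chrY:1000000-2000000 with 6 of 7. Next came chr4:145000000-146000000 with 5 of 5, chr4:146000000-147000000 with 5 of 5 and chrY:2000000-3000000 with 5 of 6. In this order, the windows held 3, 2, 2, 2, 1 and 1 Ring1B peaks. The widest unpaired Cbx7 peaks lay at chrY:2848622-2854818 (6.20 kb), chr1:85256374-85260062 (3.69 kb), chr8:19957152-19960389 (3.24 kb), chrY:2869554-2872374 (2.82 kb) and chr2:116374847-116377560 (2.71 kb), from 4.22 to 324 kb from Ring1B, and none overlapped Suz12 or RYBP. Without read counts, Cbx7 binding at these sites and background in the Cbx7 library cannot be told apart. The unpaired peak closest to Ring1B, chr2:115900006-115900901, ended 41 bp before a Ring1B peak of 1362 bp that another Cbx7 peak covered to 93.9%.

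Individual sites show the range of the footprint. The widest one-to-one Ring1B peak, chr8:126060836-126148721, was matched by a Cbx7 peak with insets of 111 and 102 bp over 87.9 kb, a covered share of 99.8%. The third widest, chr6:47600629-47637156, was covered to 98.1%, whereas the second, chr6:47686949-47723612, was left uncovered over 7274 bp at its upper end, a covered share of 80.2%. No RYBP peak overlapped these 3. The other 2 of the 5 widest, chr2:38201558-38214029 and chr7:144500098-144511788, were covered to 94.9 and 98.5% by Cbx7 and to 13.4 and 10.7% by RYBP.

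The smallest footprints in Ring1B peaks of at least the median width of 1639 bp all lay off centre, with midpoints from 9.01 to 34.8% of the Ring1B width. At chr8:87294720-87300224 a Cbx7 peak of 1326 bp covered 24.1% of 5504 bp, with its midpoint at 28.9% of the width, while Suz12 covered 96.4% and no RYBP peak was listed. At chr3:89121804-89127447 a Cbx7 peak of 1624 bp covered 28.8%, and RYBP covered 84.1% of that Cbx7 peak and 34.3% of the Ring1B peak. At chr8:72606531-72612987 Cbx7 covered 29.6% and RYBP 58.1%, with the whole Cbx7 peak under RYBP. The remaining 2 of these 5 carried no RYBP either. At chr15:93166467-93168337 the Cbx7 midpoint stood at 9.01% of the Ring1B width, the largest offset among these wide pairs at 82.0% of the distance to the edge. At chr14:118624305-118628360 it stood at 15.3%. Further large offsets were found at chr7:51684396-51686217, chrX:50409488-50412434 and chr13:117092778-117094772, with covered shares of 30.4, 30.2 and 32.8%.

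The 200-kb windows with the most Cbx7 peaks lie, by the general knowledge of the mm9 genome and without an annotation used here, at the Hox clusters, arrays of developmental transcription factor genes that are classical Polycomb targets. At chr2:74400000-74600000 (HoxD) all 20 Cbx7 peaks were paired, 16 of 21 Ring1B peaks carried Cbx7, and their covered shares had a median of 82.8% and a range from 26.7 to 100%. At chr11:96000000-96200000 (HoxB) all 17 Cbx7 peaks were paired and 14 of 28 Ring1B peaks carried Cbx7, with a median covered share of 78.4%. At chr15:102800000-103000000 (HoxC) all 16 were paired and 13 of 24 Ring1B peaks carried Cbx7 (median 85.4%), and at chr6:52000000-52200000 (HoxA) all 14 were paired and 13 of 18 Ring1B peaks carried Cbx7 (median 87.3%). Over the whole lists, 92.1% of Cbx7 peaks and 35.3% of Ring1B peaks were paired. The windows were picked for their number of Cbx7 peaks, so a high share of Ring1B peaks with Cbx7 is partly built in. Their bounds are fixed and can cut a cluster, so the counts need not hold a whole cluster. The window beside the HoxC one, chr15:102600000-102800000, held 10 Cbx7 peaks, all paired, and 17 Ring1B peaks. Ring1B peaks with 2 or more Cbx7 peaks numbered 4, 3, 3 and 1 in the HoxD, HoxB, HoxC and HoxA windows. The fifth place was shared by chr7:77400000-77600000 and chr18:37800000-38000000 with 11 Cbx7 peaks each, all paired, and median covered shares of 92.6 and 95.5%.

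The footprint was also compared between chromosomes. Over the 19 autosomes and X, the median covered share ran from 72.5% on X (74 Ring1B peaks) to 85.9% on chromosome 10, and the median width ratio from 73.9% on X to 86.5% on chromosome 10. The median midpoint offset ran from 7.63% on chromosome 5 to 12.7% on X. The share of nested pairs ran from 58.0% on chromosome 18 to 80% on chromosome 17, with 76.9% on X. On X 76.6% of 107 Cbx7 peaks were paired (67.8 to 83.6%), and on the autosomes from 85.7% on chromosome 8 to 96.1% on chromosome 7. On Y 2 of 13 Cbx7 peaks were paired. X and Y together held 36 of the 218 unpaired Cbx7 peaks. Differences between chromosomes were not tested.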

How the data were processed

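The authors deposited 1 peak list per target, whose other values are the first and last position of each peak, in bp; no score or p-value is listed. Bowtie 0.12.7, MACS 1.3.7.1 and build mm9 are named, without roles, in the submitters' processing notes; control library, threshold and pooling: not given in the sources used here. Lists were matched to samples by target. Coordinates are as listed, and width is end minus start. Shares carry 95% Wilson intervals and medians binomial order-statistic intervals, over peaks. Calls required a Benjamini-Hochberg adjusted p below 0.05 in Fisher's exact tests (4), which treat peaks as independent and do not cover variation between libraries. Sign tests between lists, set out at the start, are not reported as tests because each target has 1 library. The members, measures and rules for naming sites by width, count, offset or distance were chosen with earlier results of these data known. The functions were tested on simulated peaks. Python 3.11.15, numpy 2.4.6, pandas 2.3.3, SciPy 1.17.1 and matplotlib 3.10.9 were used. No mm9 sequence or annotation was used here, so no site was assigned to a gene and no sequence is shown. Alternatives comprised stricter or looser pairing, leaving out X and Y, merging peaks, wide Ring1B peaks only, leaving out peaks of 10 kb or more, width quintiles and, added after the data were seen, narrow Cbx7 peaks only.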

Additional observations from a re-analysis of the deposited data

How the results depend on the processing

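Of 71 recomputed values, 54 kept their direction and call or stayed within their interval. Only Ring1B peaks of at least median width gave 80.7% of Cbx7 peaks paired, a median covered share of 79.8% and 73.5% of pairs nested. Merging peaks within 1 kb gave a covered share of 78.1%, 73.7% nested, a width ratio of 79.5% and 4.05% of Ring1B peaks with 2 or more Cbx7 peaks. Pairing within 1 kb gave 78.8% covered and 14.9% with 2 or more, and an overlap of 50% of the shorter peak 5.67%. Without X and Y, 93.1% of Cbx7 peaks were paired. Leaving out peaks of 10 kb or more gave 89.9% paired and a median distance of 83152.5 bp, because Cbx7 peaks inside a removed Ring1B peak then count as unpaired. The difference in Suz12 by covered share, not called at 0.780 points, turned to -0.693 (50% overlap), -0.503 (merged), -0.102 (wide Ring1B) and -0.712 points (width quintiles), with adjusted p from 0.145 to 1.000 over all alternatives in exact tests. The share of Ring1B peaks on which Suz12 covered more, and RYBP less, than Cbx7 stayed above 50% and the tests of paired against unpaired Cbx7 peaks stayed called, in every alternative run for them. No test across replicate libraries was possible because each target has 1 library. Depth is unknown, so whether an unpaired site falls under a detection limit was not tested.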
